A study of Mus musculus with 9 samples.

Results

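VLDL-sized emulsion particles were compared directly with chylomicron-sized (CHYL-sized) emulsion particles by RNAseq, with 3 libraries of each. The 6 libraries compared are part of a series of 9, the other 3 being of untreated control cells, and were chosen by their treatment labels. All groups were RAW 264.7 cells, a mouse macrophage-like tumour line, and cells given either particle received 1 mM for 6 hours, by the labels and the methods, although the legend of a supplementary figure gives a lower dose for CHYL-sized particles. Both particles were made of sunflower oil with sodium caseinate as emulsifier, at different pressures of which the methods list the higher for the CHYL-sized ones. They carry no apolipoproteins and stand for natural lipoproteins in size and triglyceride content alone. The methods say that the samples of a condition from 1 experiment were pooled, so that a library stands for a pool. With group alone in the model, p-values measure the spread between the 3 pools of a group, estimated over all 3 groups. With the replicate number as a term, they measure what is left of that spread after shifts shared by a number. The comparison covered the 12637 genes with more than 10 estimated counts in at least 3 of the 9 libraries, out of 54432 genes in the table.

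VLDL and chylomicrons are the lipoproteins that carry triglycerides in blood. Macrophages take them up, break down their triglycerides in lysosomes and at the cell surface, and store the fatty acids again in lipid droplets. A heavy load of fatty acids is known to disturb the endoplasmic reticulum (ER), amino acid and redox balance, which cells answer through the integrated stress response (the transcription factors ATF4 and CHOP), the heat shock response and NRF2. The comparison asks whether gene expression depends on the size of the particle at the same labelled dose.

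Depth was nearly equal, from 22393893 to 22856792 estimated counts per library. Levels are given as counts-per-million after TMM normalization (cpm), and differences as log2 of VLDL-sized over CHYL-sized, so that a positive value means a higher level with VLDL-sized particles. The 12 macrophage markers were all detected, with a summed level of 7037 to 7258 cpm in the CHYL-sized and 6810 to 7061 cpm in the VLDL-sized libraries, and 7518 to 7589 cpm in control. Markers of other cell types summed to between 5.93 and 7.13 cpm in any library, and 7 of the 16 had no count at all, among them *Epcam*, *Adipoq* and *Alb*. In each group the library of replicate 3 stood apart from replicates 1 and 2 along the second principal component (14.4% of the variance, against 49.1% for the first, which separated control from both particles). The labels do not say what the replicate 3 libraries share.

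How many genes differed between the particles depended on how replicate 3 was handled. In the model with group alone, 0 of the 12637 genes (0%) passed an adjusted p of 0.05 in limma (Benjamini-Hochberg adjustment over all genes tested). Its smallest adjusted p was 0.5, and 813 genes (6.43%) had an unadjusted p under 0.05, of which 422 were higher with VLDL-sized particles. edgeR's quasi-likelihood test also called 0 genes, with 812 at an unadjusted p under 0.05, and DESeq2 called 24, with 650. With the replicate number as an additive term (replicate block), 147 genes (1.16%) passed, 74 higher with VLDL-sized particles (0.586%) and 73 lower (0.578%). Scaled by library size alone, 168 passed, of which 65 were higher. With a term for replicate 3 alone, 239 genes passed, and 145 of them were among the 147. Groups share the numbers 1 to 3 in the labels, which do not say what a number stands for. The deviations of same-numbered CHYL-sized and VLDL-sized libraries from their group had correlations across genes of 0.029, 0.12 and 0.36, the last being that of replicate 3. The correlation was 0.17 for CHYL-sized 1 with VLDL-sized 2 and 0.18 for CHYL-sized 2 with VLDL-sized 1. Both were above the values of same-numbered replicates 1 and 2, so these 2 numbers are not shown to pair libraries. Without replicate 3 in all groups, 257 genes passed in the model with group alone and 160 with the block. Such fits keep replicates 1 and 2 alone, which lay closer to each other than to replicate 3. The chi-square of their counts over its degrees of freedom was 3.67 in control, 5.67 in CHYL-sized and 4.68 in VLDL-sized libraries. Against replicate 3 it was 13.9 to 17.6. A larger number of calls without replicate 3 is therefore not a firmer result.

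Most libraries mattered to the number of genes called with the replicate block. Among VLDL-sized libraries, 11 genes passed when the first was left out, 2 when the second was and 67 when the third was. Among CHYL-sized libraries the numbers were 20, 7 and 84, in the same order of replicates 1 to 3. Among control libraries they were 48, 118 and 328. All 147 genes kept the sign of their difference in each of these fits in which they were tested. Of the 51 called genes that are named by rule, *Etv5* passed in all 9 fits, and the median gene passed in 3. In what follows, a gene is called when it passed with the block and all 9 libraries, and a single gene's difference, SE and adjusted p are from that fit unless said otherwise. Medians, counts of higher and lower members and 95% intervals are from the model without the block unless said otherwise. No gene passed in limma without the block, and the interval without it includes 0 in several called genes. An SE with the block can be much smaller: 0.15 against 0.42 without it for *Klf2*, but 0.049 against 0.053 for *Atg12*. Counts of called members of a list stand against 0.586% of all genes called higher and 0.578% called lower.

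**Figure D1:**
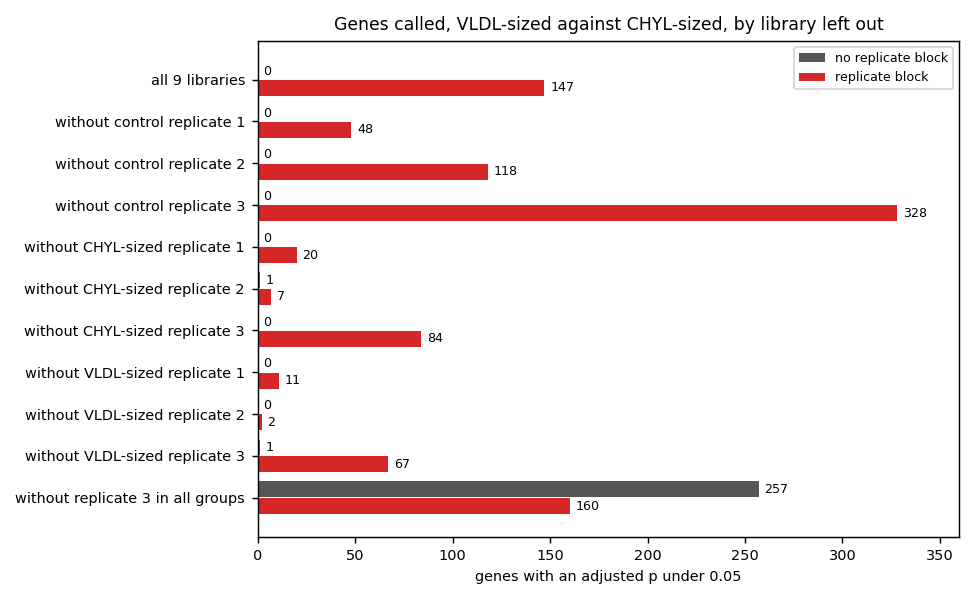
Number of genes with an adjusted p under 0.05 for VLDL-sized against CHYL-sized particles, without (grey) and with (red) the replicate block, for all 9 libraries and with libraries left out. Grey bars stay at 0 or 1 until replicate 3 is left out of all groups (257), and bars with the block range from 2 to 328.

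The differences were small. Over all genes tested the median absolute difference was 0.07 on the log2 scale and 90% of genes lay within 0.28 of 0. In 9346 genes the 95% interval of the difference lay within 0.5 of 0 on either side without the block, and in 9941 with it. Among called genes the median absolute difference was 0.29, the smallest 0.14 (*Hsp90ab1*) and, among those with a mean of at least 50 counts, the largest 0.95 (*Hspa1b*). 3 called genes lay under 50 counts. *Ramp2* had 2.66, 17.5 and 11.4 counts in the CHYL-sized libraries and *Gm49378* 36.1, 0 and 26.6, and both had no count in any VLDL-sized library, which allows up to 3 in each. *Gm10401* had 10.7 to 16.8 counts in the VLDL-sized and 3.35 to 4.62 in the CHYL-sized libraries. Of the 97 genes that differed by more than 1 on the log2 scale without the block, 87 had a mean under 50 counts in both groups.

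Genes that responded to particles of either size tended to lie further from control with the VLDL-sized ones. The mean of both particles against control, a contrast in which both particles weigh the same, raised 252 genes (1.99%) and lowered 222 (1.76%) by more than 1 on the log2 scale at an adjusted p under 0.05. Of the 252 that were higher than control, 212 (84.1%) were higher with VLDL-sized than with CHYL-sized particles, with a median difference of 0.15. Of the 222 that were lower than control, 181 (81.5%) were lower with VLDL-sized particles, with a median difference of -0.23. Over all genes tested, 49.5% were higher with VLDL-sized particles and the median was -0.0012. When same-numbered libraries were set against each other the median was 0.17, 0.18 and 0.11 for the 252 genes in replicates 1, 2 and 3, and -0.25, -0.22 and -0.18 for the 222. These shares kept their direction in every alternative run. Such counts are a description, as both contrasts use the same 6 particle libraries.

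**Figure D2:**
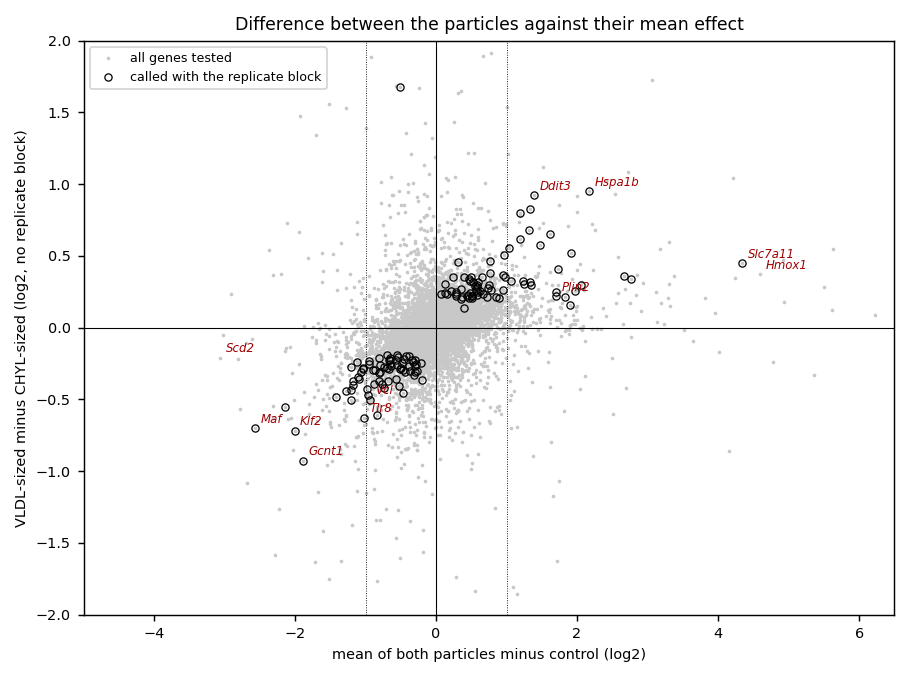
Difference between the particles (vertical axis, log2, no replicate block) against the mean effect of both over control (horizontal axis, log2) for the genes tested, with the genes called with the block circled and dotted lines at 1 and -1. Circled genes within the range lie in the lower left and upper right, apart from *Gm10401*, and 26 genes of low count lie outside the plotted range.

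The list with the most genes called higher with VLDL-sized particles was that of ATF4 and CHOP, which drive amino acid supply and, when stress persists, cell death. Of the 21 members tested, 7 were called and all 7 were higher with VLDL-sized particles, against 0.586% of all genes. All 21 had a positive difference, with a median of 0.31 without the block, and between same-numbered libraries the median was 0.45, 0.31 and 0.17. Without replicate 3 in all groups, 14 members were called, all higher, both with and without the block, and with 1 library left out the number with the block was between 0 (without VLDL-sized replicate 2) and 13. *Ddit3*, which encodes CHOP itself (chr10:127290774-127296288 of GRCm38), was at 8.11, 9.81 and 12.4 cpm in the CHYL-sized libraries and at 18.9, 17.3 and 20.6 cpm in the VLDL-sized ones, beside 4.25, 4.76 and 7.12 cpm in control. The 3 groups did not overlap, and the difference between the particles was 0.90 ± 0.11 (SE, adjusted p = 0.0082), about 1.87-fold. The call was lost without replicate 2 of either particle (highest adjusted p = 0.072).

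*Ppp1r15a* encodes GADD34, the phosphatase subunit that ends the translation block of this pathway. It was at 20.2, 20.7 and 35.7 cpm with CHYL-sized and 36.7, 30.6 and 51.2 cpm with VLDL-sized particles, with 9.04, 8.38 and 13.2 cpm in control. Replicate 3 of the CHYL-sized group was within the range of the VLDL-sized libraries, while within each replicate number the VLDL-sized library was the higher (0.64 ± 0.07, adjusted p = 0.0048). Selection by the block favours such an order within numbers, so it adds no support to the call. *Trib3*, a pseudokinase induced by CHOP, showed the same arrangement, at 24.1, 26.0 and 41.1 against 45.8, 36.8 and 50.5 cpm (0.55 ± 0.11, adjusted p = 0.044). *Sesn2* and *Ddit4*, both of which restrain mTORC1, were called with non-overlapping groups: *Sesn2* was at 24.8, 23.8 and 38.6 against 41.3, 40.2 and 49.5 cpm and *Ddit4* at 3.77, 4.63 and 6.16 against 7.21, 7.5 and 10.5 cpm. The other called members were *Nupr1*, a small stress-induced chromatin protein (0.45 ± 0.08), and *Mthfd2*, an enzyme of mitochondrial folate metabolism (0.21 ± 0.04).

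Members that were not called include *Atf4* (0.31, adjusted p = 0.11), *Atf3* (0.38, adjusted p = 0.11), *Asns* (0.22, adjusted p = 0.081) and *Chac1* (0.68, adjusted p = 0.08). *Slc1a4*, a neutral amino acid transporter outside the list, was at 12.1, 11.9 and 21.1 cpm with CHYL-sized and 21.5, 19.8 and 29.4 cpm with VLDL-sized particles (0.65 ± 0.09, adjusted p = 0.013). *Slc7a1*, which imports cationic amino acids (0.24 ± 0.04), *Cth*, the last enzyme of the route from methionine to cysteine (0.38 ± 0.07), *Bcat1*, a transaminase of branched-chain amino acids (0.28 ± 0.05), and *Cars*, the cysteine tRNA ligase (0.21 ± 0.04), were called too, but were picked with their values known, so that their shared direction counts for nothing. The chaperones of the ER, which answer to ATF6 and XBP1, had 1 call among 20, the co-chaperone *Dnajb9* (0.26 ± 0.05, adjusted p = 0.043), and 19 of the 20 intervals lay within 0.5 of 0.

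**Figure D3:**
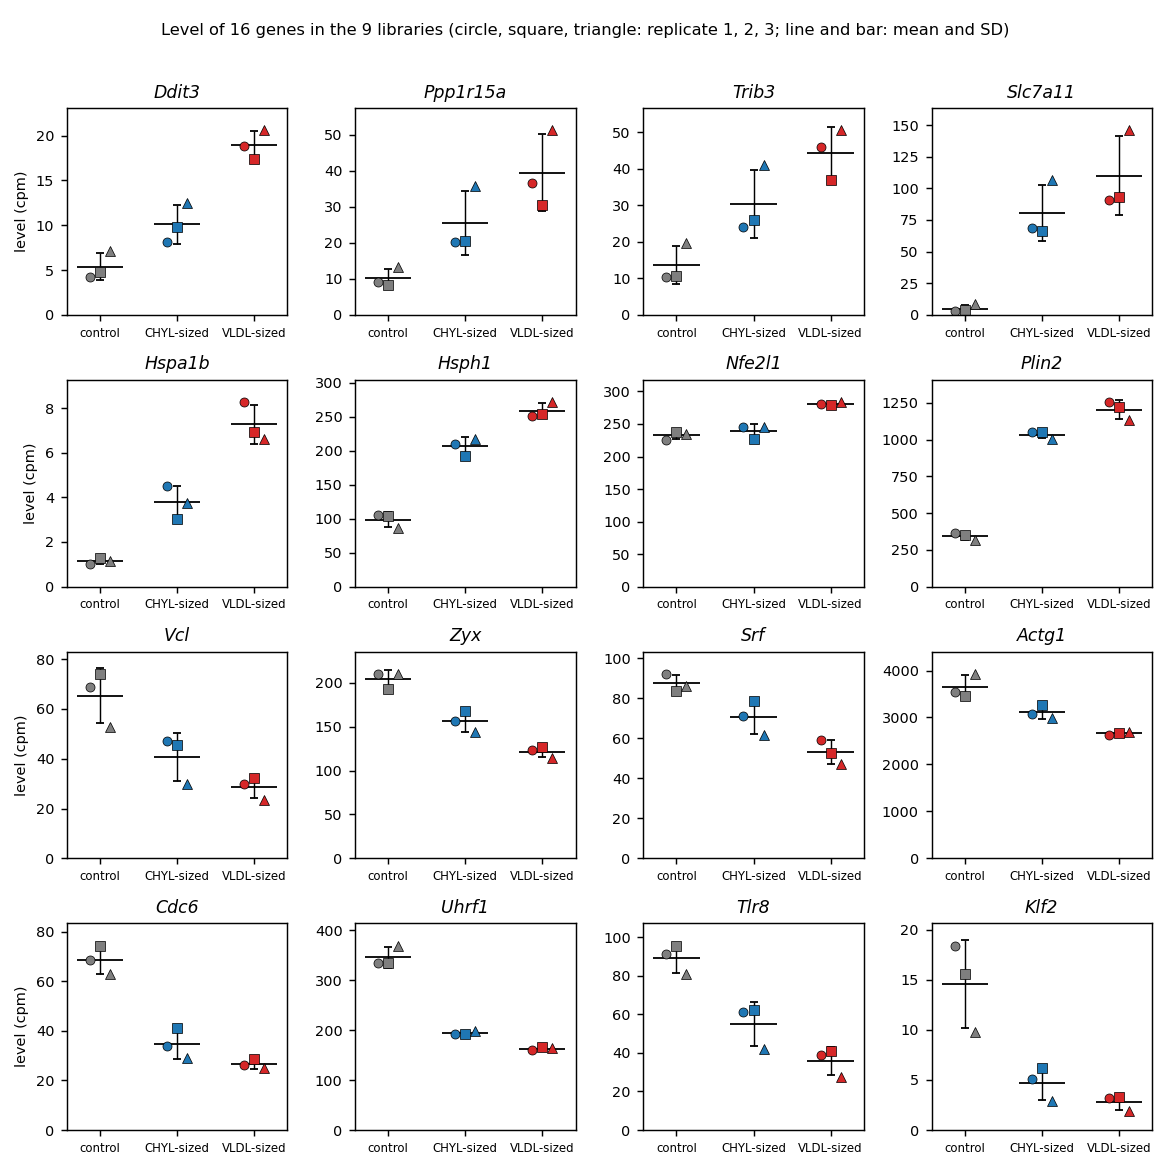
Level (cpm, linear axes from 0) of 16 genes called with the replicate block, by library, with 3 libraries in each of the control, CHYL-sized and VLDL-sized groups, where marks give the replicate number and lines and bars the mean and SD. In the upper 8 panels VLDL-sized libraries are higher than the CHYL-sized library of the same number, and in the lower 8 they are lower. Selection by the block favours such an order.

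Promoters of 2 called genes hold the composite element that C/EBP and ATF proteins share, searched here as TGATGNAAN on both strands in RefSeq windows from 250 bases before to 50 bases after each start (GRCm38.p6). They are shown because *Slc7a11* carries it in both orientations and *Nupr1* is one of the 6 list members with a match. The capitals mark the element in the 250 bases before the start.
Slc7a11 (chr3:50443614-50443863, reverse strand): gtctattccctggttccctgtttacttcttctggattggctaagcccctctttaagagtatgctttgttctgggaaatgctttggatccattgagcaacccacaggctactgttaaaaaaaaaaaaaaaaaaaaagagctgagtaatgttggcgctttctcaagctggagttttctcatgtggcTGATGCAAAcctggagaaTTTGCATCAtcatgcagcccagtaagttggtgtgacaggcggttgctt
Nupr1 (chr7:126625471-126625720, reverse strand): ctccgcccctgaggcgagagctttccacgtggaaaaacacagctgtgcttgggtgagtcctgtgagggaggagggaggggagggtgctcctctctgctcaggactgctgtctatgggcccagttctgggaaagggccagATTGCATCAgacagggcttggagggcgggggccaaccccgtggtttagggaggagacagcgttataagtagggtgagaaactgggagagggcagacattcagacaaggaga
The element was in the window of 7 of the 59 genes called higher that have one (11.9%), of 5 of the 59 called lower (8.47%) and of 263 of 9344 tested genes (2.81%). Of the ATF4 and CHOP list, 6 of 20 windows held it (30%). Among all 27025 genes with a window the share was 4.5%. A match is a run of letters and no evidence of binding in these cells.

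The list of cytosolic heat shock proteins, mostly chaperones that HSF1 controls, was higher with VLDL-sized particles in 14 of the 15 members tested, with a median of 0.14. It also holds *Hspd1* and *Hspe1*, chaperonins of mitochondria, and the transcription factors *Hsf1* and *Hsf2*. With the block 4 were called, all higher, against 0.586% of all genes. Without replicate 3 in all groups 4 were called with the block and 5 without it, and with 1 library left out 0 to 6. In 6 of the 15 all VLDL-sized libraries lay above all CHYL-sized ones (5.66% of all genes). *Hspa1b*, an inducible HSP70 (chr17:34956436-34959238 of GRCm38), was at 4.52, 3.05 and 3.76 cpm with CHYL-sized and 8.26, 6.92 and 6.62 cpm with VLDL-sized particles, against 1.01, 1.26 and 1.16 cpm in control (0.95 ± 0.14, adjusted p = 0.015). The groups did not overlap, and the call was lost without replicate 1 or 2 of either particle (highest adjusted p = 0.17). Its near-identical neighbour *Hspa1a* had at most 1.17 counts in any library, so the split of reads between the pair is uncertain and *Hspa1b* may stand for both. *Hsph1*, which exchanges the nucleotide of HSP70, was at 210.4, 192 and 217 against 252, 253 and 271 cpm (0.33 ± 0.07, adjusted p = 0.048). The cytosolic HSP90 genes were called with small differences, 0.23 ± 0.03 for *Hsp90aa1* and 0.14 ± 0.03 for *Hsp90ab1*. The heat shock element that HSF1 binds was in 4 of the 11 promoter windows of the list (36.4%), against 0.524% of tested genes. Of these list members only *Hsph1* was called, and *Chordc1*, *Hspd1* and *Hspe1* were not. Among called genes it was in 1 of the 59 windows of those higher (1.69%, *Hsph1*) and 1 of the 59 of those lower (1.69%, *Ccnd3*). *Hspa8*, the constitutive HSP70, was at 2299, 2324 and 2583 against 2904, 2689 and 2897 cpm without being called (adjusted p = 0.068).

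Subunits of the proteasome, which degrades ubiquitinated proteins, differed by little: 28 of 31 were higher with VLDL-sized particles and 0 were called, with values from -0.01 to 0.15, a median of 0.06 and all 31 intervals within 0.5 of 0. *Nfe2l1*, the transcription factor that induces proteasome genes, was called, at 245, 227 and 246 against 280, 279.8 and 284 cpm (0.23 ± 0.04, adjusted p = 0.029), with 226, 237 and 235 cpm in control.

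Genes of the NRF2 response, which detoxifies oxidants and makes glutathione, had the highest median difference from control of the 30 lists and differed little between the particles. Against control the median over the 27 tested was 1.98 with VLDL-sized and 1.89 with CHYL-sized particles, and the median between particles 0.06, with 22 higher and 5 lower with VLDL-sized particles. *Slc7a11*, the cystine importer that feeds glutathione synthesis, was called, at 69.1, 66.4 and 106 against 90.4, 93.5 and 146 cpm from 2.94, 3.67 and 8.57 cpm in control (0.45 ± 0.07, adjusted p = 0.024). So was *Prdx1*, a peroxidase (3323, 3297 and 3774 against 3677, 3707 and 4242 cpm, 0.16 ± 0.03). *Hmox1*, haem oxygenase, just missed the threshold at 4656, 5045 and 7015 against 7097, 6440 and 7806 cpm (0.37, adjusted p = 0.051), while *Gclm* (0.04) and *Txnrd1* (0.01) had differences near 0. *Mafk*, a small MAF protein that pairs with NRF2, was higher (0.29 ± 0.06) and *Maf*, a large MAF factor, lower (-0.71 ± 0.14, 32.5, 33.2 and 13.3 against 17.4, 21.6 and 8.88 cpm), and *Nfe2l2*, which encodes NRF2, had a difference of -0.03. Without the block the interval was -0.04 to 0.63 for *Mafk* and -1.62 to 0.22 for *Maf*.

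Autophagy, metal and lipid storage genes gave a few further calls. *Sqstm1*, the cargo receptor p62, was at 1357, 1358 and 1600 against 1619, 1524 and 1865 cpm, and *Atg12*, which is conjugated to ATG5, at 41.2, 42.3 and 45.2 against 51.6, 51.1 and 49.8 cpm. They were the 2 called of the 18 autophagy genes, against 0.586% of all genes called higher. *Mt2*, a zinc-binding metallothionein, was called (0.36 ± 0.07) and *Mt1* was not (0.23, adjusted p = 0.17). *Plin2*, which coats lipid droplets and responds to the fatty acids a macrophage takes in, was at 1050, 1050 and 1005 cpm with CHYL-sized and 1255, 1224 and 1136 cpm with VLDL-sized particles, from 363, 349 and 316 cpm in control. The groups did not overlap (0.22 ± 0.03, adjusted p = 0.024), and it was the 1 gene called of 18 PPAR lipid targets. The call of *Plin2* was lost without any 1 VLDL-sized library and without CHYL-sized replicate 1 or 2 (highest adjusted p = 0.17). *Hilpda*, an inhibitor of lipolysis at the droplet, was at 13.2, 13.1 and 16.7 against 18.1, 16.4 and 20.3 cpm (0.35, adjusted p = 0.054), and 0 of the 17 other genes of droplet and triglyceride turnover were called, with 15 intervals within 0.5 of 0.

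Most genes of the list of the actin cytoskeleton and its transcription factor SRF lay lower with VLDL-sized particles. The list also holds the tubulins *Tuba1a*, *Tuba1b*, *Tubb5* and *Tubb6*, the intermediate filament gene *Vim* and the lamin gene *Lmna*. Of 24 members tested 5 were called, all lower, beside 0.578% of all genes, and 20 of the 24 were lower with a median of -0.09. Without replicate 3 in all groups 6 were called with the block and 7 without it, all lower, and with 1 library left out 0 to 8. *Vcl*, the vinculin of focal adhesions, was at 47.1, 45.7 and 29.8 cpm with CHYL-sized and 29.8, 32.2 and 23.6 cpm with VLDL-sized particles, below 68.8, 74.1 and 52.9 cpm in control (-0.51 ± 0.06, adjusted p = 0.007). Replicate 3 of the CHYL-sized group was within the range of the VLDL-sized libraries, and the call of *Vcl* was lost without replicate 2 of either particle (highest adjusted p = 0.074). *Srf* itself was at 71.3, 78.6 and 61.6 against 59.4, 52.7 and 47.3 cpm (-0.41 ± 0.07, adjusted p = 0.029) and *Zyx*, another adhesion protein, at 156, 167 and 144 against 123, 126 and 114 cpm (-0.36 ± 0.06, adjusted p = 0.024), both without overlap. *Actg1*, the cytoplasmic gamma actin, was at 3072, 3262 and 2991 against 2621, 2675 and 2689 cpm (-0.22 ± 0.05), and *Cnn2*, an actin-binding calponin, was the other call (-0.24 ± 0.05). *Actb* was not called (-0.17, adjusted p = 0.13), and neither were *Flna* (0.06), *Tln1* (0.08) and *Actn4* (0.01), which crosslink actin or tie it to integrins. Called genes outside the list with related roles, chosen after their values were seen, were *Lima1* (-0.33 ± 0.06), *Palld* (-0.22 ± 0.05), *Fmnl1* (-0.27 ± 0.05) and *Fhl3* (-0.28 ± 0.05), all lower.

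SRF binds a CArG box, and the windows of 3 called genes are given because they hold one before the start, shown in capitals.
Vcl (chr14:20929148-20929397, forward strand): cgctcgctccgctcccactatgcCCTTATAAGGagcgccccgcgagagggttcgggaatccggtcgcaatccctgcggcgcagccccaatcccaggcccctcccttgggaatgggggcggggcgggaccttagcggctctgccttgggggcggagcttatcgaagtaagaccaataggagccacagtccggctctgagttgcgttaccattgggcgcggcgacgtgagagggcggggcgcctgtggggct
Srf (chr17:46556163-46556412, reverse strand): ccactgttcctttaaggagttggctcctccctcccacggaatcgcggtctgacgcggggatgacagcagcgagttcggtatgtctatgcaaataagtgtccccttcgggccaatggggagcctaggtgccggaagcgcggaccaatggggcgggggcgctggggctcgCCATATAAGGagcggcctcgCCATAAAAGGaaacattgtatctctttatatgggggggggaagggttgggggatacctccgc
Actg1 (chr11:120348496-120348745, reverse strand): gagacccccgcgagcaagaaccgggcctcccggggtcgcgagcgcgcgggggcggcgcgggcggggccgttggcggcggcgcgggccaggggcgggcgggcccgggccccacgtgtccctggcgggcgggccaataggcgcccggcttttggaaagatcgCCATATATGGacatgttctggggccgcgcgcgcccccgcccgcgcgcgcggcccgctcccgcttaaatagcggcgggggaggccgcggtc
The box was searched on both strands, and matches of different motifs were counted separately also where they overlapped. It began 227 bases before the start in *Vcl*, 82 and 62 bases before it in *Srf* and 90 bases before it in *Actg1*. It was in the windows of 7 of the 59 genes called lower (11.9%: *Actg1*, *Cnn2*, *Gpr183*, *Lima1*, *Prune2*, *Srf* and *Vcl*), of 1 of the 59 called higher (1.69%) and of 133 of the 9344 tested (1.42%).

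Genes of DNA replication and S phase lay lower with VLDL-sized particles in 29 of the 30 members tested, with a median of -0.13, and in 17 of the 30 all VLDL-sized libraries lay below all CHYL-sized ones (5.63% of all genes). With the block 4 were called, all lower, against 0.578% of all genes. When replicate 3 was left out of all groups 3 were called with the block and 7 without it. With 1 library left out, 0 to 8 were called with the block. Both particles lay below control, with a median of -0.61 for VLDL-sized and -0.49 for CHYL-sized. The called members were *Cdc6*, which loads the replicative helicase, *Ccne2*, a cyclin of S phase entry, *E2f8*, a repressor of the E2F family, and *Uhrf1*, which carries DNA methylation through replication. *Cdc6* was at 34.1, 41.1 and 29.1 against 26.4, 28.8 and 24.9 cpm, from 68.5, 74.4 and 62.8 cpm in control (-0.38 ± 0.06, adjusted p = 0.024). *Uhrf1* was at 192, 192 and 198 against 160, 166 and 164 cpm, from 334, 334 and 369.6 cpm in control (-0.25 ± 0.04, adjusted p = 0.024). The particles did not overlap in either gene.

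The helicase subunits themselves had values from -0.17 (*Mcm7*) to -0.09 (*Mcm6*) without being called, and *Pcna* was at -0.01. The one member on the other side was *Pole* (0.09). Of 28 genes of mitosis 20 were lower and 0 were called, with a median of -0.07 and *Plk1* closest to the threshold (-0.22, adjusted p = 0.057). *Ccnd1* and *Ccnd3*, the D-type cyclins that carry growth signals into the cycle, were called lower: *Ccnd1* was at 284, 289 and 194 against 201, 220.4 and 147 cpm, from 524, 529 and 446 cpm in control (-0.43 ± 0.06, adjusted p = 0.015). *Ccnd3* differed by -0.32 ± 0.05. Since these are bulk samples, fewer cells in S phase and less RNA of these genes per cell cannot be told apart.
The E2F site (TTTCCCGC or TTTGGCGC, both strands) was in 8 of the 23 windows of the replication list (34.8%), against 3.61% of tested genes. It was in 3 of the 59 genes called lower (5.08%) and in 1 of the 59 called higher (1.69%). Of the 8 list members that hold it, only *Cdc6* was called. *Cdc6* is shown because it is called and holds the site, in capitals, 138 bases before the start.
Cdc6 (chr11:98907901-98908150, forward strand): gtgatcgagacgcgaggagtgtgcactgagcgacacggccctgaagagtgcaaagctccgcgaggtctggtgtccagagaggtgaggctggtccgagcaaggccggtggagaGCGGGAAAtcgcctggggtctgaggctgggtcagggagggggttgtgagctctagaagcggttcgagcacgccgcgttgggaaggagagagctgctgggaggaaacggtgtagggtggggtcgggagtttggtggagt

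Transcription factors and signalling genes that answer growth factors were split. Of the 25 immediate early genes tested, 2 were called higher with VLDL-sized particles and 3 lower, with a median of 0.008 without the block and -0.02 with it. Over all genes the shares called were 0.586% higher and 0.578% lower. *Dusp1*, a phosphatase of stress kinases, was at 56.5, 57.9 and 93.5 against 96.2, 84.0 and 111 cpm, from 21.1, 19.8 and 23.6 cpm in control (0.51 ± 0.09), and *Ier5*, which acts with HSF1, was higher by 0.25 ± 0.04. On the lower side were *Dusp6*, the phosphatase of ERK (78.0, 78.2 and 36.3 against 52.9, 55.6 and 21.4 cpm, -0.58 ± 0.10), *Klf2*, a factor of macrophage quiescence (5.09, 6.21 and 2.87 against 3.19, 3.32 and 1.91 cpm, -0.74 ± 0.15), and *Myc* (-0.44 ± 0.08). In these 3 genes replicate 3 was the lowest library of each group, controls included. Without the block their intervals included 0: -1.46 to 0.25 for *Dusp6*, -1.65 to 0.22 for *Klf2* and -1.2 to 0.29 for *Myc*. *Etv5*, a factor induced by ERK, was at 74.4, 74.7 and 58.5 cpm with CHYL-sized and 53.8, 58.5 and 42.5 cpm with VLDL-sized particles, from 123, 125 and 103 cpm in control (-0.43 ± 0.05, adjusted p = 0.0048). Replicate 3 of the CHYL-sized group and replicate 2 of the VLDL-sized group were at the same level. The call of *Etv5* held without any 1 library (adjusted p from 0.0011 to 0.035). *Id1* (-0.50 ± 0.09) and *Id3* (-0.28 ± 0.05), targets of BMP signalling, were also called lower, and *Id3* was chosen after its values were seen. The interval of *Id1* without the block was -1.1 to 0.13.

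Some called genes of immune signalling are described here with no list behind them, and they lay on both sides. *Rgs1*, which damps signalling of chemokine receptors, was at 47.0, 46.9 and 71.6 against 66.1, 69.8 and 88.3 cpm (0.45 ± 0.07, adjusted p = 0.024). *Tlr8*, an endosomal sensor of RNA, was at 61.4, 62.1 and 42.0 against 38.7, 40.9 and 27.4 cpm, from 91.1, 95.6 and 80.8 cpm in control (-0.63 ± 0.07, adjusted p = 0.0048), without overlap. The call was lost without replicate 2 of either particle (highest adjusted p = 0.071). *Tlr7*, its neighbour on the X chromosome, differed by -0.21 ± 0.04, with *Cd33*, a lectin that binds sialic acid (-0.45 ± 0.07), and *Cx3cr1*, the fractalkine receptor (16.1, 15.0 and 25.5 against 9.90, 10.7 and 18.2 cpm, -0.54 ± 0.08). In *Cx3cr1* replicate 3 was the highest library of each group, and the order of the particles was the same within each number, as selection by the block favours. Its interval without the block was -1.39 to 0.28. *Pik3cg*, the catalytic subunit of a PI3 kinase of leukocytes, was close to control with CHYL-sized particles (77, 75.5 and 69.1 cpm in control and 75.1, 76.5 and 68.0 cpm with CHYL-sized) and lower with VLDL-sized ones (59.3, 57.3 and 54.2 cpm, -0.36 ± 0.04, adjusted p = 0.0048). *Tlr7* and *Pik3cg* were chosen after their values were seen. Of 11 chemokines 0 were called, and 1 was called lower without replicate 3 in all groups, with or without the block. *Ccl2*, which attracts monocytes, was at 56.6, 65.8 and 58.9 against 40.5, 41.8 and 41.5 cpm, without overlap (-0.55, adjusted p = 0.056 with the block, and 0.036 in DESeq2 without it).

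Interferon-stimulated genes, which antiviral signalling induces, were lower with VLDL-sized particles in 26 of the 27 tested, with a median of -0.13, and 0 were called, with or without replicate 3. Their values ran from -0.85 to 0.74, the latter in the 1 member that was higher. With 1 library left out, 0 to 2 were called with the block. Of the 27 intervals, 12 lay within 0.5 of 0. The difference varied between the replicate numbers, with a median of -0.32, -0.06 and -0.17 in replicates 1, 2 and 3, and in 1 gene, *Xaf1*, the groups did not overlap. *Irf1* had the smallest adjusted p, with 23.9, 25.5 and 20.1 against 18.5, 21.3 and 16.1 cpm and 31.7, 34.0 and 32.7 cpm in control (-0.32, adjusted p = 0.075). In the list of TNF, interleukin-1 and NF-kB genes 0 of 22 were called, with *Nlrp3*, the sensor of the inflammasome, the nearest (-0.30, adjusted p = 0.057). Without replicate 3 in all groups 1 was called lower with the block and 3 without it. With 1 library left out, 0 to 4 were called with the block.

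**Figure D4:**
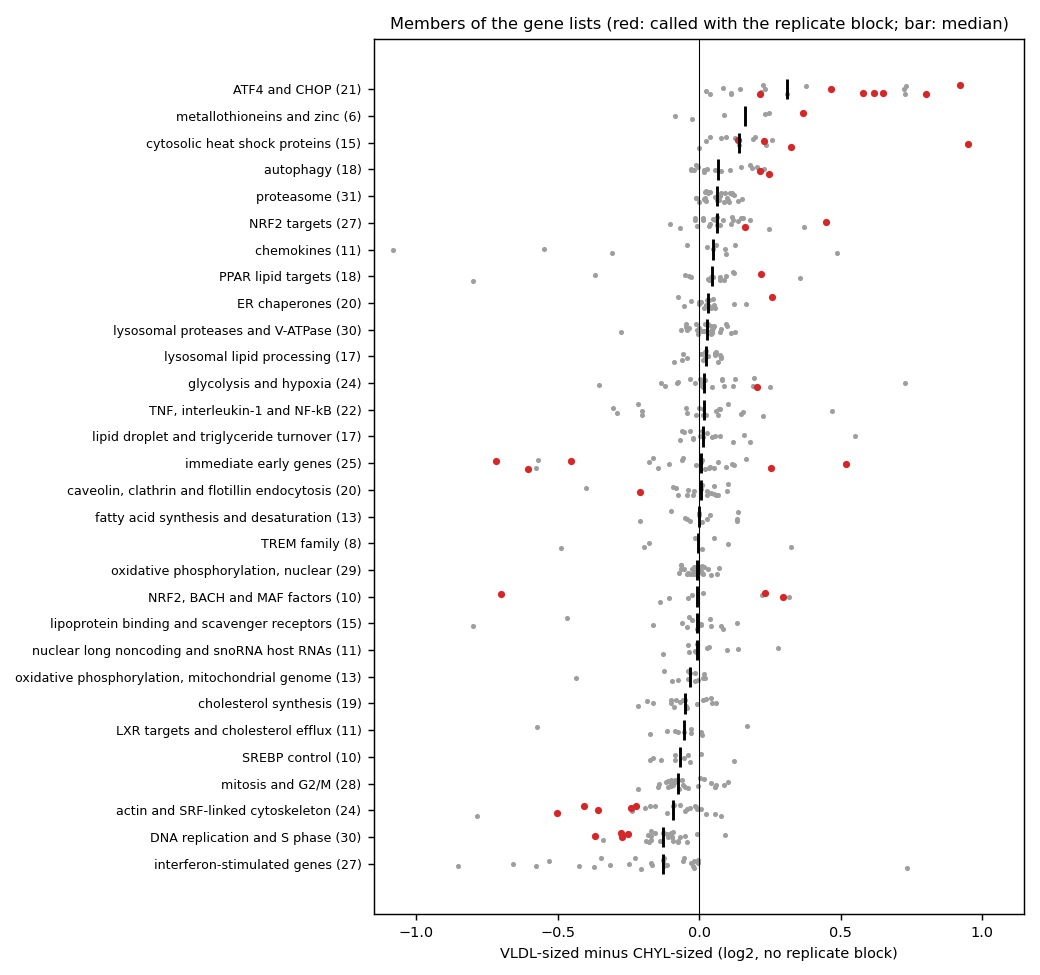
Difference between the particles (log2, no replicate block) of the tested members of 30 gene lists, with the number tested in brackets, the median as a bar and genes called with the block in red. All points of the ATF4 and CHOP list lie above 0, and 29 of 30 of DNA replication and 26 of 27 interferon-stimulated genes lie below it.

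Genes of the route by which the particles enter and are broken down differed little. *Lpl*, the lipoprotein lipase that macrophages secrete, was at 1024, 970.5 and 1049 cpm with CHYL-sized and 1044, 1043 and 972 cpm with VLDL-sized particles, and the 95% interval of the difference was -0.10 to 0.11 without the block. *Lipa*, the lysosomal acid lipase that frees fatty acids from triglycerides, was at 1915, 1825 and 1930 against 1972, 1998 and 2007 cpm, from 915, 928 and 1019 cpm in control, with an interval of -0.04 to 0.19. The interval was -0.05 to 0.20 for *Npc1*, which exports cholesterol from lysosomes, and -0.24 to 0.06 for *Stard3*, a sterol-binding protein of late endosomes. *Cav2*, a caveolin, was at 82.9, 77.4 and 88.2 against 69.1, 79.9 and 84.5 cpm (-0.27 to 0.08), and *Cav1* had no count in any of the 9 libraries, which allows up to 3 counts in each. So the bound on either side was below 0.5 for each of these 5 tested genes. Among 20 tested genes of caveolin, clathrin and flotillin endocytosis, 1 was called, *Dab2*, a clathrin adaptor, at 820.1, 860.4 and 803 against 729, 721 and 699 cpm from 1359, 1299 and 1374 cpm in control (-0.21 ± 0.04, adjusted p = 0.035).

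**Figure D5:**
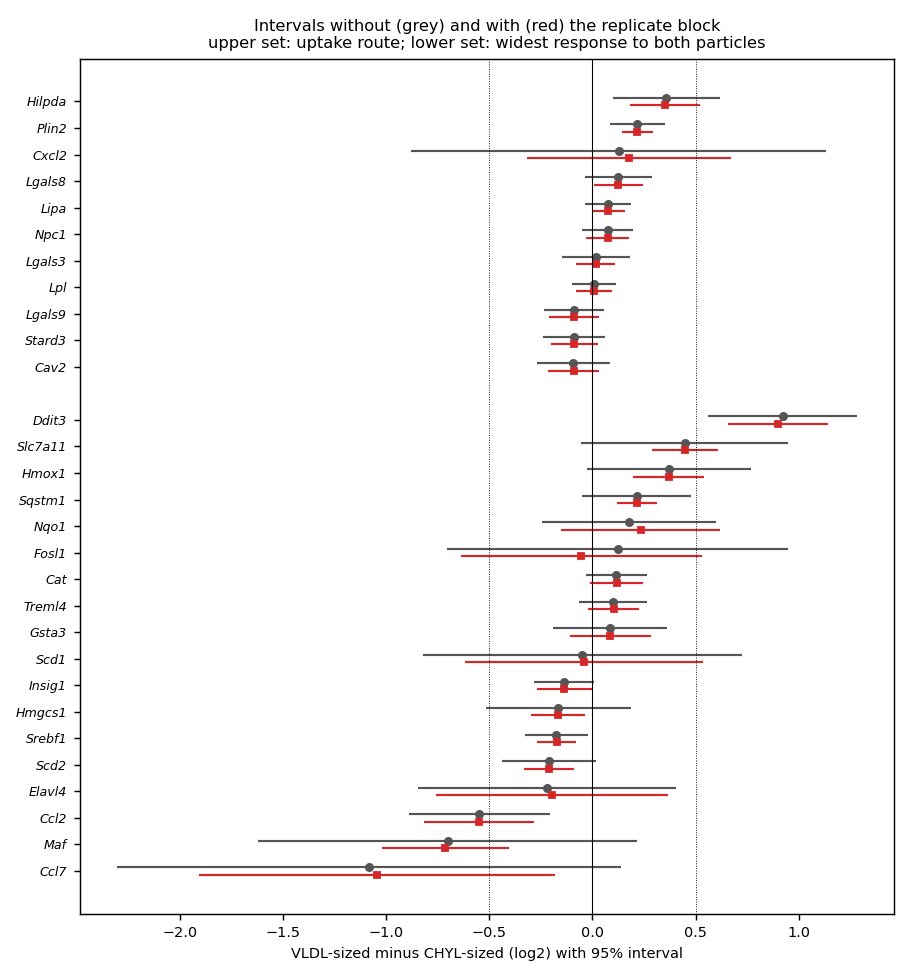
Difference between the particles (log2) with its 95% interval, without (grey) and with (red) the replicate block, for 11 genes of the uptake route (upper set) and 18 genes that respond widely to both particles (lower set), with dotted lines at 0.5 and -0.5. *Lpl*, *Lipa*, *Npc1*, *Stard3* and *Cav2* lie between the dotted lines, and *Ddit3* lies above 0.5 without the block.

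Of 15 receptors for lipoproteins and scavenger receptors tested, 0 were called, 7 were higher and 8 lower with VLDL-sized particles, and 12 intervals lay within 0.5 of 0. Without the block *Lrp1* differed by 0.13 (-0.07 to 0.34) and *Msr1*, a scavenger receptor, by -0.06 (-0.15 to 0.03). The other 3 intervals were those of *Marco*, *Cd36* and *Sdc4*. *Cd36*, a receptor for fatty acids and oxidized lipoproteins, was near the limit of detection at 0.310, 0.495 and 0.593 against 0.320, 0.0898 and 0.5 cpm and had an interval of -2.04 to 0.44, so a difference was not detectable at this depth. *Sdc4*, a proteoglycan, had an interval of -0.62 to 0.55. *Marco*, a scavenger receptor of low level here, was at 7.18, 6.39 and 5.84 against 4.61, 3.95 and 5.55 cpm, without overlap, from 2.90, 2.06 and 2.96 cpm in control (-0.45, adjusted p = 0.16).

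Cholesterol synthesis had a median of -1.30 with VLDL-sized and -1.20 with CHYL-sized particles against control, and of -0.05 between them, with 0 of 19 called and 17 intervals within 0.5 of 0. *Hmgcs1*, an early enzyme of the pathway, was at 84.4, 78.7 and 57.0 against 70.0, 73.2 and 52.5 cpm, from 314, 327 and 269 cpm in control. Its interval was -0.52 to 0.19 without the block and -0.30 to -0.03 with it (adjusted p = 0.23). *Scd2*, a desaturase, was at 173, 186 and 140.5 against 134, 159.8 and 136 cpm, from 1288, 1353 and 1206 cpm in control. Its interval was -0.44 to 0.02 without the block and -0.33 to -0.09 with it (adjusted p = 0.1). In further lists 0 were called, of 10 genes of SREBP control, of 13 of fatty acid synthesis, of 11 LXR targets, of 17 of lysosomal lipid processing, of 30 lysosomal proteases and V-ATPase subunits, of 8 of the TREM family, of 13 genes of the mitochondrial genome and of 11 nuclear noncoding RNAs. Their values were not all small: without the block *Trem1* differed by -0.49 (-0.83 to -0.15), *Apoc2* by -0.58 (-1.26 to 0.11) and *mt-Nd3* by -0.44 (-0.85 to -0.02). All 17 intervals of lysosomal lipid processing and all 29 of the nuclear oxidative phosphorylation genes lay within 0.5 of 0. Of 24 genes of glycolysis and hypoxia, *Pfkp*, a phosphofructokinase, was the 1 called (0.20 ± 0.04).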

How the data were processed

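RNAseq was done on 9 libraries of RAW 264.7 cells. The authors deposited estimated counts per gene (TxImport, from Salmon 0.14.1 against GENCODE M22 and GRCm38.p6). The methods describe counts scaled for library size and mean transcript length, so the paper's input may differ from the deposited table. Of the deposited values over 10, 58.3% were whole, and these counts were treated as not normalized. The TMM normalization, limma-voom fit (limma 3.58.1, edgeR 4.0.16, R 4.3.3, voom offset of 0.5 counts) and Benjamini-Hochberg adjustment were computed from them over 12637 genes, in a model of all 9 libraries with 3 groups, with and without the replicate number. These genes held 99.9% of the counts. Estimated counts were rounded for edgeR and DESeq2 (DESeq2 1.42.0). Intervals are at 95%. The check of the pairing used the deviation of each library from its group mean. The scripts were tested on simulated data.

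The comparison, its members and the gene lists were chosen with earlier results of these data known. The genes named by rule were the 15 with the largest and the 15 with the smallest difference among those called with the block at a mean of at least 50 counts, up to 4 called members of each list or, in a list without a call, the 2 nearest to one, and all genes of the uptake route and of the widest response. Other genes named were chosen after their values were seen. Coordinates are from GENCODE M21 (GRCm38) and promoter windows from RefSeq (GRCm38.p6), which held one for 9344 of the tested genes. Symbols were matched for 54346 of 54432 genes. Alternatives were other tools, scalings and filters, the 6 libraries alone, each library left out, replicate 3 left out, and a term for replicate 3. Results of a few single genes are not reported here.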

Additional observations from a re-analysis of the deposited data

How the results depend on the processing

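With group alone in limma, 0 genes passed, and this number was 24 in DESeq2, 257 without replicate 3 in all groups, 147 with the replicate block and 239 with a term for replicate 3, the last chosen after seeing the data. It stayed between 0 and 1 when each library was left out, with 1 gene without VLDL-sized replicate 3 and 1 without CHYL-sized replicate 2. With the replicate block, the 147 became 97 without a filter on low counts, where more genes share the adjustment, and ranged from 2 to 328 with each library left out (11, 2 and 67 without VLDL-sized 1, 2 and 3, 20, 7 and 84 without CHYL-sized 1, 2 and 3, 48, 118 and 328 without control 1, 2 and 3). The counts by gene list without replicate 3 or 1 library were also chosen after seeing the data. Across the alternatives, 76.8% to 87.2% of the genes higher than control were higher with VLDL-sized particles, and 77.4% to 86.6% of the genes lower than control were lower. Under other tools, other scalings and a filter of over 50 counts in 3 libraries, 147 to 188 genes were called with the block. The cause of these differences was not tested. The same-numbered VLDL-sized and CHYL-sized libraries correlated at 0.029, 0.12 and 0.36 in their deviations, so the numbers are not shown to pair the libraries, and a call gained or lost under the block is not a stronger or weaker effect.

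Among the 104 genes named by rule, the only ones followed in this way, the difference changed sign in 8. Without the block and with each library left out, the range was -0.024 to 0.041 for *Lpl* (0.0071 with all), -0.25 to 0.43 for *Cxcl2* (0.13), -0.031 to 0.073 for *Lgals3* (0.016), -0.027 to 0.18 for *Gsta3* (0.085), -0.14 to 0.61 for *Fosl1* (0.12), -0.29 to 0.29 for *Scd1* (-0.049) and -0.40 to 0.057 for *Elavl4* (-0.22). By library size alone *Lpl* came to -0.0062, or -0.0061 with the block. *Fosl1* came to -0.031 in edgeR, -0.054 with the block and -0.086 with the term for replicate 3. With the block, the sign changed for *Lpl* without VLDL-sized 1 (-0.0041), VLDL-sized 2 (-0.029) and CHYL-sized 2 (-0.029), for *Cxcl2* without CHYL-sized 3 (-0.14), for *Lgals3* without VLDL-sized 1 (-0.020) and CHYL-sized 1 (-0.045), for *Scd1* without VLDL-sized 1 (0.26) and CHYL-sized 2 (0.15), for *Elavl4* without VLDL-sized 1 (0.10), and for *Zbtb46* without VLDL-sized 3 (-0.0067) and without replicate 3 in all groups (-0.00099). *Fosl1* with the block came to 0.056 in edgeR, 0.11 in limma-trend, 0.53 without VLDL-sized 3, 0.49 without CHYL-sized 3 and 0.53 without replicate 3 in all groups. None of these genes was called in either fit.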
